A study of Mus musculus with 2 samples.

Results

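The Maf genes described here are 5 members of a family of basic leucine zipper transcription factors: the large factors Maf and Mafa and the small factors Maff, Mafg and Mafk. They were found on the arrays as the non-control probes whose transcript accession belongs to one of these genes in RefSeq. The rod factor Nrl, a relative of the large Mafs, was left out by that rule. The rule gave 7 probes, 3 for Mafg and 1 for each of the other 4 genes, among 21367 named genes in all. All 5 genes were above background on both arrays and so were among the 15938 genes tested, a gene being tested when it was above background on at least 1 array.

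Total RNA of mouse retinas dissected at postnatal day 12 (P12) was measured on 1-colour Agilent arrays, with 1 array for retina labelled Samd7 KO and 1 array for retina labelled wild type. Samd7 encodes a sterile alpha motif protein of photoreceptors, and the comparison asks how the retinal profile differs between the genotypes. The labels used here give neither the strain, the deleted part of Samd7, nor the number of animals behind each RNA. With 1 sample per group there is no spread between animals and no p-value, so each difference below compares these 2 arrays.

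Maf proteins bind DNA as dimers at Maf recognition elements, extended sites built around TGCTGA. Large Maf proteins carry a transactivation domain, while small Maf proteins lack one and act through partners of the CNC family such as NRF2 and BACH1. In the mouse, Maf is needed for lens fibre cells to elongate and to make crystallins, Mafa drives insulin gene expression in pancreatic beta cells, and the small factors serve in red cell genes and in the antioxidant response.

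The probe for the targeted gene, Samd7, had a processed signal of 48967 on the KO-labelled array, against 14769 on the wild-type-labelled array. A higher signal in a knockout may go against the label, or the probe may read a part of the transcript still made. Other reasons are possible, and none was tested. The place of the probe in the gene is not known here. The arrays are therefore named by their labels throughout, and every direction rests on those labels. Photoreceptor markers were bright on both arrays, and the median log2 difference of 7 such markers was -0.21. Sag, the rod arrestin, had a signal of 87896 on the KO-labelled array and 111026 on the wild-type-labelled array. Of 7 cone markers listed apart, 2 were at least 2-fold higher, Cnga3 (2.91) and Opn1sw (2.09), and 5 were not 2-fold apart. Signals were scaled to each array's 75th percentile, and differences are log2 KO-labelled minus log2 wild-type-labelled. The technical SD of a difference, from 319 probes with repeated spots above background, was 0.05 where the mean scaled log2 signal was at least 0. It was 0.09 between -2 and 0, 0.19 between -4 and -2, and 0.38 for dimmer probes. It covers spot noise within these arrays only.

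Maf was the only one of the 5 genes at least 2-fold apart. It was higher in the KO-labelled retina by 6.39-fold, while Mafa, Mafg, Mafk and Maff lay between -0.26 and 0.21 on the log2 scale. Over all genes tested, 251 (1.57%) were at least 2-fold higher and 218 (1.37%) at least 2-fold lower, so 2.94% were apart in either direction. With 5 members, that single gene has no share to set against this background. The median difference of the 5 genes was 0.12, against -0.02 for all genes tested.

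**Figure D1:**
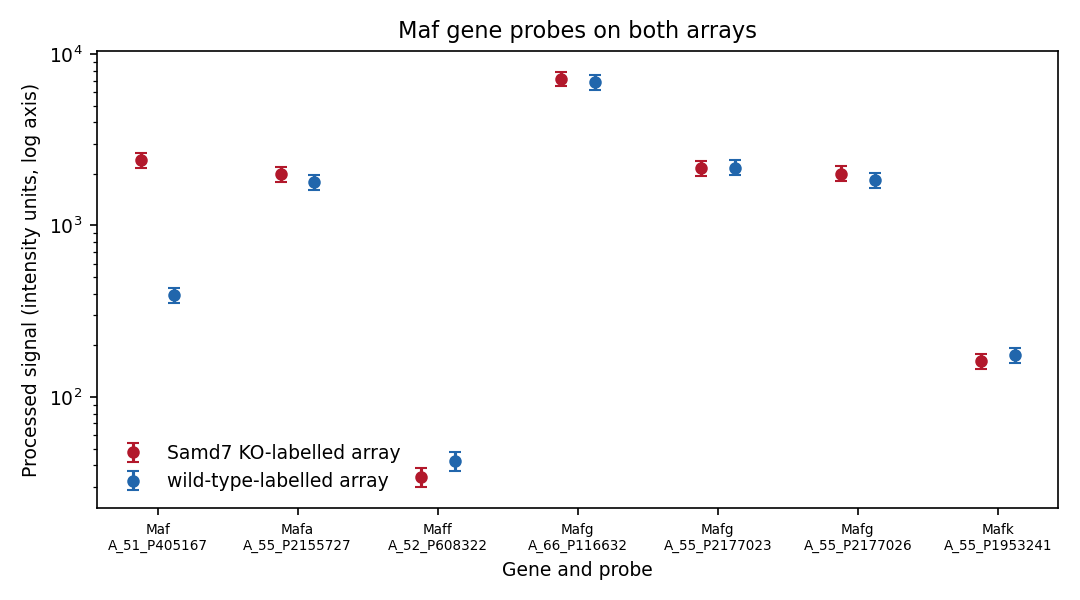
Processed signal (intensity units, log axis) of each of the 7 Maf gene probes on the Samd7 KO-labelled array (red) and the wild-type-labelled array (blue). Bars are the scanner software's own error of a spot's signal, about 10% for all probes but that of Maff, and Maf alone has bars that lie far apart, at 2417 on the KO-labelled array and 392 on the wild-type-labelled array.

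Of the large factors, Maf had a processed signal of 2417 on the KO-labelled array, against 392 on the wild-type-labelled array. Its raw spot was 49.9 times the local background on the KO-labelled array and 9.10 times on the wild-type-labelled array, so it was well measured on both. On the scale relative to the 75th percentile, the log2 signal was 2.13 on the KO-labelled array and -0.55 on the wild-type-labelled array, placing Maf above the 75th percentile of spots on the first and below it on the second. The difference of 2.68 stands against a technical SD of 0.05 at this mean signal. Only 27 of the 15938 genes tested had a higher difference. Among the 2038 genes above background on both arrays whose mean signal lay within 0.5 log2 of that of Maf, 4 differed by as much in either direction, Maf included, and the median size of difference was 0.07. A single probe, with 1 spot per array, carries this value.

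Mafa, the insulin gene activator, had a processed signal of 1986 on the KO-labelled array, against 1784 on the wild-type-labelled array. The difference was 0.21, or 1.16-fold, more than 4 times the technical SD of 0.05 but well short of 2-fold. Of 1991 genes of like signal, 215 differed by as much. Both large factors were thus on the higher side, with differences of unlike size.

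**Figure D2:**
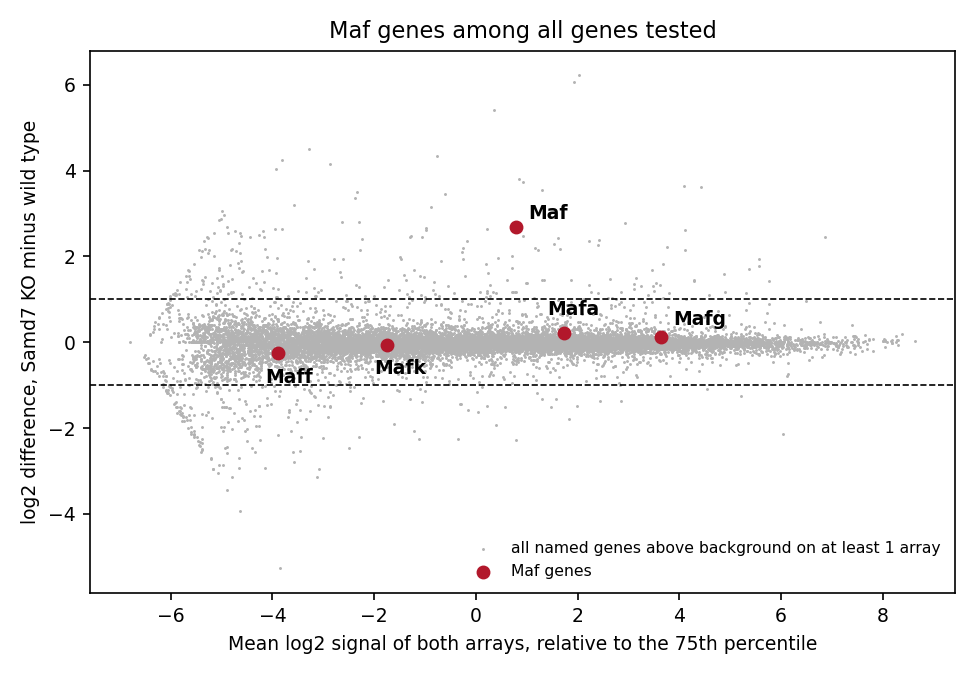
Difference (log2, Samd7 KO minus wild type) against mean log2 signal of both arrays for the 15938 genes tested (grey), with the 5 Maf genes in red and dashed lines at 2-fold. Maf stands at 2.68 above the band of genes of like signal, and the other 4 lie within that band.

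Among the small factors, Mafg was read by 3 probes, and all 3 lay near level. The brightest had a signal of 7189 on the KO-labelled array, against 6868 on the wild-type-labelled array, a difference of 0.12. A second probe gave 2172 on the KO-labelled array and 2177 on the wild-type-labelled array (0.05). The third probe gave 2008 on the KO-labelled array and 1851 on the wild-type-labelled array (0.17). The 3 differences spanned 0.12, so the spread between probes of the gene was as large as the difference of its brightest probe.

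Mafk had a signal of 161 on the KO-labelled array and 175 on the wild-type-labelled array. The difference of -0.07 was within the technical SD of 0.09 at this signal. Maff was the dimmest member, at 34.2 on the KO-labelled array and 42.4 on the wild-type-labelled array, with raw spots 1.84 and 1.85 times the local background on the KO-labelled and the wild-type-labelled array. Its difference of -0.26 compares with a technical SD of 0.19, and 412 of 1036 genes of like signal differed by as much. A rise of the size seen in Maf is many times the technical SD of each small factor, whereas a change of 1.2-fold in Maff was not detectable at this signal. Levels are not ranked between the genes, because probes differ in their response.

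Small Maf genes are themselves known to be switched by oxidative and mitogenic stimuli, and antioxidant response elements share the core TGACNNNGC. RefSeq promoter windows of 250 bases before to 50 after a gene's start (build GRCm38.p6) were held for the 3 small Maf genes, in 5 windows since Maff has several starts. The core, on either strand, was in 12.4% of all 32851 windows, but in 7 of 14 windows of lens crystallin genes (50%). A higher share was thus not particular to the small Maf genes. In these, the core was in 3 of the 5 windows (60%), 1 for each gene. The matches are shown to give the letters behind that count, 5′ to 3′ on the gene's strand, with the core in capitals (reverse complement in Mafk and Mafg). A match of letters is a description and not a bound site.
Mafk, chr5:139791513-139791542, plus strand: gatcccggaaGCGGTGTCAgtactggggag
Mafg, chr11:120633750-120633779, minus strand: ctctgcaggaGCACGGTCAacccggcgagc
Maff, chr15:79346499-79346528, plus strand: gggcgtctcaTGACTCTGCcactggaaaga

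The partners of the small Maf proteins were near level as well. Of the 6 CNC genes, 5 were above background and 0 were 2-fold apart in either direction, with a median of 0.06. With 2.94% of all genes tested that far apart, a count of 0 in so few genes does not set the list apart. The same limit holds for the small counts in the lists below. Nfe2l2, which encodes NRF2, was at -0.03, with a signal of 1307 on the KO-labelled array and 1384 on the wild-type-labelled array. Nfe2l1 was at -0.10, and the repressors Bach1 and Bach2 were at 0.06 and 0.14. Nfe2, the partner of red cell precursors, was not well above background on either array.

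Genes of the antioxidant response, known outputs of NRF2 with small Mafs, had a median of -0.01, and of 26 measured members 1 was at least 2-fold lower and 0 were 2-fold higher. That member was Gsta2, a glutathione transferase, with a signal of 44.8 on the KO-labelled array and 101 on the wild-type-labelled array (-1.12, but -0.61 after normexp background correction). Heme oxygenase, Hmox1, a classical target that BACH1 represses, was highest at 0.59, followed by the glutathione transferase Gstp1 at 0.46. Hmox1 had another probe at 0.29, and by the mean over probes it (0.44) lay close to Gstp1 (0.43). Osgin1 (-0.43) and the quinone reductase Nqo1 (-0.22) were lowest of the rest. Both were dim, with a technical SD of 0.19 at their signal. After normexp they were at -0.19 and -0.12, and Ephx1 (-0.16) lay below Nqo1. The list thus held members on both sides of 0, 11 higher and 15 lower.

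Among 10 measured genes of the AP-1 factors, leucine zipper relatives of the Mafs, 0 were 2-fold apart, beside 2.94% of all genes tested. Their median was 0.08. Fos (0.48) and Jun (0.30) were highest, and Atf3 (-0.07) and Junb (-0.04) lowest. Of 9 globin and heme synthesis genes, a class served by NFE2 with small Mafs, 0 were 2-fold apart, again beside 2.94% of all. Their median was 0.30. The globins Hbb-bt (0.44) and Hbb-b1 (0.36) were highest, and the heme synthesis gene Ppox was at 0.03. Globin genes of the same class, alpha or beta, are near-identical copies whose probes can share signal. Red cell markers hold 4 of these same genes, so they add no separate reading of red cell content; Slc4a1, an anion exchanger of red cells and the other measured marker, was at -0.52 (technical SD 0.38 at its signal, and -0.14 after normexp). The part of red cells in the globin values was not tested.

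**Figure D3:**
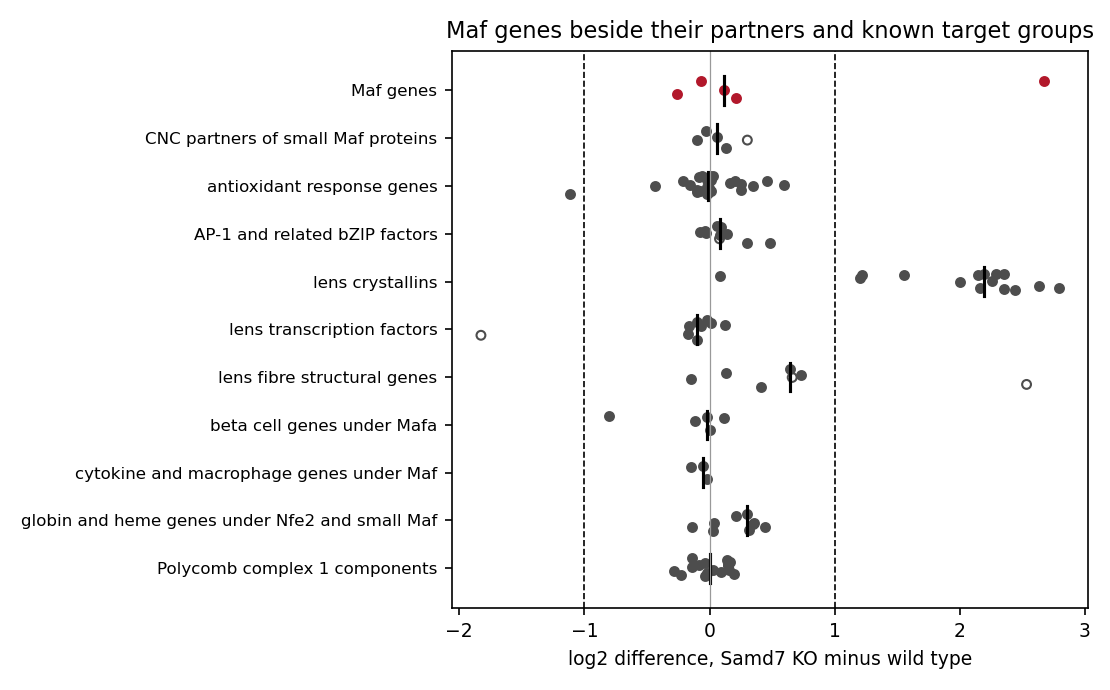
Difference (log2, Samd7 KO minus wild type) of each gene above background, for the 5 Maf genes (red) and for 10 gene lists (grey); open points are bounds for genes above background on 1 array only, black ticks are medians and dashed lines mark 2-fold. Crystallins are the list whose median, 2.19, lies past 2-fold, and the other lists centre between -0.10 and 0.64.

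Lens crystallins, the soluble proteins of the lens and known targets of Maf in the mouse lens, were, of the 10 lists, the one whose median lay nearest to the difference of Maf. Of 15 crystallin genes, 14 were at least 2-fold higher and 0 at least 2-fold lower, with a median of 2.19. After normexp, 12 were at least 2-fold higher. That the crystallins were higher was known from earlier results of these data when the list was made, so the count is not independent evidence. Crybb2, a dim gene, had a signal of 234 on the KO-labelled array and 35.0 on the wild-type-labelled array. Its difference of 2.80 was the highest by the brightest probe, but it was 1.53 after normexp, below Crygs (2.31), and by the mean over probes Cryaa (2.74) lay above Crybb2 (2.70). Crygs had a signal of 1606 on the KO-labelled array and 268 on the wild-type-labelled array (2.63), close to that of Maf.

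Next came Crygb (2.44), Crygc (2.35), Cryba1 (2.35), Cryge (2.29), Cryaa (2.25) and Crygd (2.19). The gamma genes Cryga to Crygf are near-identical, and since 1 probe may catch several of their transcripts, each value of theirs is uncertain. Cryba4 was lower down at 1.21, and after normexp it (0.96) and Crybb3 (0.99) were under 2-fold. Cryab, a small heat shock protein made in many tissues, was near level at 0.08, with a signal of 3296 on the KO-labelled array and 3224 on the wild-type-labelled array. Crystallins therefore differed among themselves, with Cryab apart from the rest.

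RefSeq windows were held for 14 of the 15 crystallin genes, 1 window each. The Maf half-site TGCTGAC, on either strand, was in 5 of the 14 windows (35.7%), and in 4.67% of all windows. The gapped element, TGCTGA with GCA after any 4 bases, which overlaps the half-site where both match, was in 2 of the 14 (14.3%), and in 0.387% of all windows. Neither was in any of the 5 small Maf windows. The crystallins were listed as known targets of Maf and with their higher values known, so these shares are not independent evidence. Matches in 4 crystallin promoters are printed to show how the site differs among genes that lay on the higher side together; Crybb1 (1.55) and Crybb3 (1.22) were picked for these matches and not by their values. Capitals mark the gapped element in Cryaa and Crybb3 (reverse complement in Crybb3) and the half-site in Cryba1 and Crybb1.
Cryaa, chr17:31677815-31677844, plus strand: attccagcTGCTGACGGTGCAgcctctccc
Crybb3, chr5:113081637-113081666, minus strand: ggacaggaTGCTATCTCAGCAtcccgtaat
Cryba1, chr11:77725332-77725361, minus strand: ggaaaagagagTGCTGACagagccgctggc
Crybb1, chr5:112255725-112255754, plus strand: ccatccaggttTGCTGACccagctgcctct

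In Cryaa the gapped element begins 108 bases before the gene's start, the half-site begins 57 bases before it in Cryba1 and 84 in Crybb1. Cryaa had a signal of 6409 on the KO-labelled array and 1394 on the wild-type-labelled array (2.25). Crybb3, whose match is of the same length, was at 1.22. The half-site was also in the windows of Cryga (2.16) and Cryba4 (1.21), which are not printed. In Cryba4 it begins 182 and 135 bases before the start. A link between matches and differences was not tested. Crybb2 had neither motif in its window, which says only that these letters are absent from that stretch.

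Lens fibre genes other than crystallins had a median of 0.64, which was 0.19 after normexp and 0.42 with only genes above background on both arrays. Of the 7 measured, 1 was at least 2-fold higher, the water channel Mip. Mip was above background on the KO-labelled array only, which gives a bound of at least 5.79-fold (2.01-fold after normexp). The klotho relative Lctl (0.73) and the filament gene Bfsp1 (0.64) were short of 2-fold, and Lenep (0.13) and the filament gene Bfsp2 (-0.15) were lower still.

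Transcription factors that work beside Maf in the lens were near level, with a median of -0.10 and 0 of 9 at least 2-fold higher. Sox2 (0.12) and Six3 (0.01) were highest, and Hsf4 (-0.17) and Sox1 (-0.17) lowest of those above background on both arrays. Tfap2a, at -0.02 by its brightest probe, had another probe at 1.17, so its value is uncertain. Several of these genes are also expressed by the retina itself. Foxe3, a lens epithelium factor, was at least 3.55-fold lower by a bound, with a signal of 11.2 on the KO-labelled array, not well above background, and 43.3 on the wild-type-labelled array (-0.52 after normexp).

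Over the lens marker list as a whole, the summed signal was 14888 on the KO-labelled array and 3221 on the wild-type-labelled array. Of its 9 members, 8 were above background on at least 1 array, Mip and Lim2 of them on the KO-labelled array only. Each of the 8 was higher, 6 of them at least 2-fold, but 5 of those 6 are crystallins counted above and the other is Mip, so the list repeats those values. Pigment epithelium markers, of the tissue on the other side of the retina, lay the other way, with 7 of 8 lower and a median of -0.42, Pmel at -0.81 and Tyrp1 at -0.68. The part of lens material in the Maf value was not tested, and in whole retina RNA a larger number of cells of a type and more RNA per cell cannot be told apart.

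Maf is also made by macrophages, and it drives cytokine genes in T helper cells. Of 7 microglia markers, 6 were lower and 1 higher, with a median of -0.15. Their summed signal, without scaling, was 11829 on the KO-labelled array and 11733 on the wild-type-labelled array. Itgam, the higher marker, was the largest part of each sum, at 6341 on the KO-labelled array and 5242 on the wild-type-labelled array. Of the 8 listed cytokine and macrophage genes under Maf, 3 were above background, the complement genes C1qa (-0.15), C1qc (-0.05) and C1qb (-0.02). Il10, Il4, Il21, Cd163 and Mrc1 were not well above background on either array. Among the microglia markers, Itgam was the member on the higher side (0.33), although its 3 probes ranged from -0.58 to 0.33, and their part in the Maf value was not tested.

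Known targets of Mafa in beta cells were mostly not measured in this tissue. Of 12 listed genes, 7 were not well above background on either array, among them Pdx1, Slc2a2 and Iapp. Of the other 5, 0 were 2-fold apart, beside 2.94% of all genes tested, and the median was -0.02. The lowest was the insulin gene Ins1, at 33.0 on the KO-labelled array and 59.8 on the wild-type-labelled array (-0.80, but -0.30 after normexp), followed by Pcsk1 (-0.12). Ins2 (0.12) and Neurod1 (0.005), a factor that the retina also uses, were highest.

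Samd7 protein is known to work with Polycomb complex 1, and 0 of 16 measured complex 1 genes were 2-fold apart. With 2.94% of all genes tested that far apart, this count is near the share over all genes. The median of the complex 1 genes was 0.002. The Samd7 relative Samd11 (0.19) and Cbx6 (0.17) were highest, and Pcgf2 (-0.28) and Phc2 (-0.23) lowest. Pcgf2 had another probe at 0.06, and by the mean over probes it was at -0.11, above Phc2.

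The nearest measured genes beside each Maf gene were read in RefSeq gene order, 3 on each side, a look taken after the values of Maf had been seen. On one side of Maf lay Wwox (-0.25), then the noncoding gene 4933408N05Rik, whose bound was at least 5.85-fold higher (1.79-fold after normexp), then Vat1l (0.08). 4933408N05Rik had a signal of 77.2 on the KO-labelled array and 3.32 on the wild-type-labelled array, where it was not well above background. On the other side lay Dynlrb2, a dynein light chain, with a signal of 1057 on the KO-labelled array and 3795 on the wild-type-labelled array. Its difference of -1.79 was opposite in sign to that of Maf. Cdyl2 (0.08) and Cmc2 (-0.08) followed, so neighbours of Maf lay on both sides of 0.

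**Figure D4:**
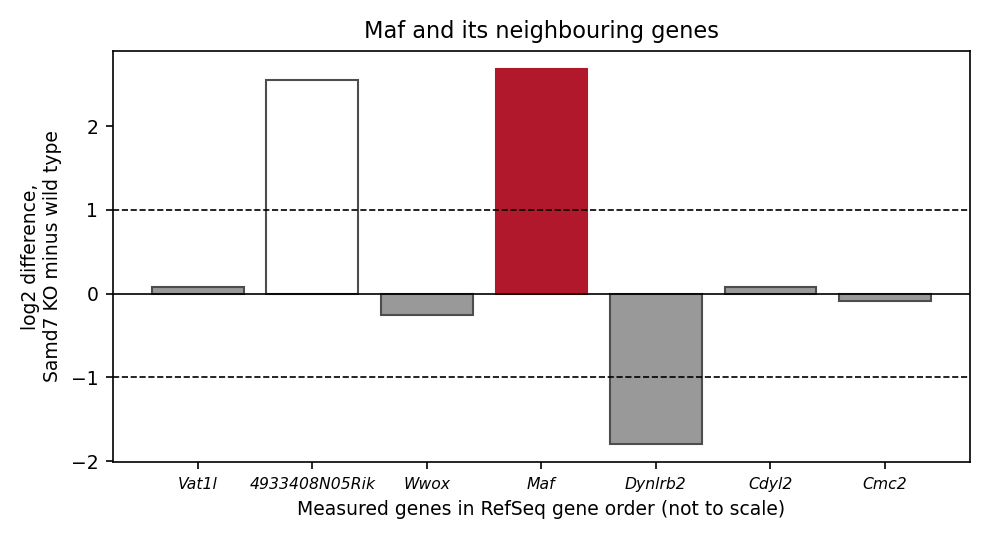
Difference (log2, Samd7 KO minus wild type) of Maf (red) and the 3 nearest measured genes on each side of it in RefSeq gene order; bars start at 0, the open bar is a bound and dashed lines mark 2-fold. Maf (2.68) stands next to Dynlrb2 (-1.79) and Wwox (-0.25).

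The other Maf genes had no neighbour at least 2-fold apart among the 3 measured on each side. With 2.94% of all genes tested that far apart, this is no contrast to Maf in so few genes. The largest difference among these neighbours was that of Slc16a8 near Maff, at -0.65, and the next that of Zc3h3 beside Mafa, at -0.50. On the other side of Mafa, Rhpn1 was at -0.40 and Top1mt at -0.39, against a technical SD of 0.05. The remaining neighbours of Mafa lay between -0.10 (Naprt) and 0.004 (Gsdmd). Beside Mafg, Sirt7 was at 0.004 and Myadml2 at 0.08, and beside Mafk, Ints1 was at 0.06.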

How the data were processed

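RNA was labelled with Cy3 by a low-input kit, per the labels' protocols. The authors deposited the scanner output of Agilent Feature Extraction 11.5.1.1, in which signals are linear intensity, made with protocol GE1_1105_Oct12 on a design built on mm9, per the file headers; both arrays lay on 1 slide. The authors' deposited value table holds those intensity values times a constant per array, with a log2 ratio to the scanner's signal of 1.37 on the KO-labelled and 1.31 on the wild-type-labelled array (column medians 106.03 and 107.75). How that constant was set is not stated in the labels or headers.

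Spots with outlier flags (163 on the KO-labelled and 119 on the wild-type-labelled array) were left out, log2 signals were set relative to the 75th percentile of non-control spots, and spots of a probe were averaged. No spot was saturated. Accessions without version were matched to RefSeq (GRCm38.p6): 28330 of 55677 probes had 1 symbol, 27347 none and 0 several. The brightest probe stood for a gene. A gene above background on 1 array only got a bound against that other array's lowest signal well above background. The members and lists were chosen with earlier results of these data known. From each list, up to 6 members at least 2-fold apart and the 2 highest and 2 lowest others above background on both arrays are named; further genes are named for a stated reason, and some listed genes are not reported here by themselves. Genes of like pattern are not named, since each gene has 1 difference here. Alternatives were quantile, median and loess scaling, normexp on median signals with offset 50, the authors' values, the mean over probes, other filters and other folds. Python 3.11.15 and R 4.3.3 with limma 3.58.1 were used.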

Additional observations from a re-analysis of the deposited data

How the results depend on the processing

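Across 8 alternatives, Maf stayed between 2.48 and 2.71 on the log2 scale, Mafa between 0.17 and 0.24, Mafg between 0.11 and 0.15, Mafk between -0.08 and -0.04 and Maff between -0.26 and -0.062. None of the 5 changed sign or side of the 2-fold line. Of 40 recomputed member values, 38 moved by no more than the technical SD, but many of these could hardly move. The filters leave genes above background on both arrays as they are, and the mean over probes changes only Mafg. The authors' values are the same signals times a constant per array, and median scaling shifts every member alike, by 0.03. The count is therefore no measure of robustness. The other 2 values came under normexp, whose offset shrinks dim signals by construction: Maf at 2.48 (5.60-fold) and Maff at -0.062 (1.04-fold lower). Counts of all genes at least 2-fold apart moved more. Against 251 higher and 218 lower genes, normexp gave 125 and 45, genes above background on both arrays 160 and 94, no filter 579 and 671, a 1.5-fold line 472 and 510, and a 4-fold line 79 and 58. The crystallin median was 1.89 under normexp. No paired analysis was possible because there is only 1 array per genotype label. Dim signal limits Maff most, and the single probe and single array per group limit every value.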
